A study of Homo sapiens with 4 samples.

Results

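Malat1 and Neat1, which encode long noncoding RNAs of the nucleus, are 2 of the 23698 mouse loci for which RNA sequencing values were deposited from 4 xenograft tumours. They were chosen by symbol, and each symbol names 1 locus in every table. Tumours of MDA-MB-231, an established human line of triple-negative breast cancer, were grown under the skin of Balb/c nude mice, which are athymic. The tumours were labelled caspase-3 efficient, or caspase-3 inhibited where the cells had been cultured with the inhibitor Z-DEVD-FMK. Of each kind, 1 tumour had no treatment and 1 was treated with docetaxel, a taxane that stabilises microtubules, at a dose of 15 mg/kg given from a tumour size of 12 mm². Each of the 4 combinations was 1 library, so there were no replicates, no test across conditions was possible, and each difference below describes those libraries and not the conditions. The labels give neither the age of the mice nor the time of sampling, and caspase-3 activity in the tumours was not measured here.

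Malat1 RNA gathers in nuclear speckles, bodies rich in splicing factors, and its end is cut by RNase P and closed by a triple helix in place of a poly(A) tail. Neat1 RNA is the scaffold of paraspeckles, nuclear bodies that hold RNA-binding proteins such as Sfpq and Nono and that enlarge in several kinds of cell stress. Neat1 is made as a short polyadenylated form and as a much longer form that shares its start, and the long form is the one that builds paraspeckles. Both RNAs are abundant in many cell types, human tumour cells included.

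The values are FPKM, fragments scaled to transcript length and to the mapped fragments of the library, computed by the authors against the mouse build mm9, with a lower and an upper bound per locus taken here as a 95% interval. The tables hold mouse loci, no step recorded in the labels separated human from mouse reads, and the share of human fragments in these values was not tested. Between 1842 and 2776 loci were above 0 in a library, and even Actb, a cytoskeletal actin gene that every cell uses, was listed at 0 in all 4 libraries. The members lie where values were dense: 109 of the 195 other loci starting within 3 Mb of Malat1 (55.9%) had a value above 0 in 3 or 4 libraries, compared with 6.32% of the loci elsewhere. The median of 342 loci at 5 FPKM or more in every library was 16.3 FPKM (untreated) and 19.5 (docetaxel) in the efficient libraries and 15.2 (untreated) and 20.3 (docetaxel) in the inhibited libraries. Both docetaxel libraries therefore stood above the untreated ones in general level, by 0.26 (efficient) and 0.42 (inhibited) on the log2 scale.

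Malat1 lies on chromosome 19 from 5795690 to 5802671 (mm9), a span of 6982 bp. Its level was 92.8 FPKM (deposited interval 81.6 to 104) in the untreated efficient library and at 125 (112 to 137) in the docetaxel efficient library. In the inhibited tumours it was at 49.8 (41.6 to 58.0) untreated and at 81.5 (69.3 to 93.7) with docetaxel. The docetaxel efficient library was thus the highest and the untreated inhibited library the lowest, 2.51-fold apart. Of the neighbouring values in that order, the untreated efficient and the docetaxel inhibited library overlapped in their intervals, and the other neighbours did not.

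Neat1 lies 39.6 kb further along the chromosome, from 5842302 to 5845478, and its entry of 3177 bp covers the short form and not the rest of the long one. It was at 71.0 FPKM (55.8 to 85.9) in the untreated efficient library and at 102 (83.3 to 117) in the docetaxel efficient library. In the inhibited tumours it was at 31.6 (21.8 to 40.8) untreated and at 62.3 (46.1 to 78.1) with docetaxel. The 4 libraries stood in the same order as for Malat1, with 3.23-fold between the highest and the lowest. The untreated inhibited library alone had an interval that overlapped with no other library. In the entry as tabled, reads of the short form and of the start of the long form cannot be told apart.

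**Figure D1:**
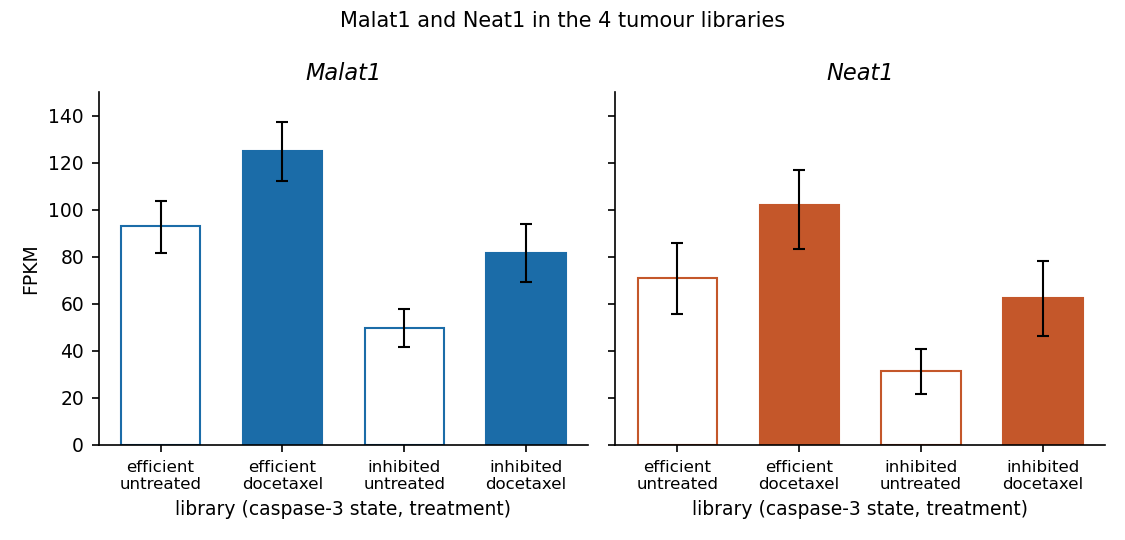
FPKM of Malat1 (left) and Neat1 (right) in the 4 libraries, 1 bar per library, with the deposited intervals as error bars; filled bars are docetaxel libraries. Both are highest in the docetaxel efficient library (125 and 102 FPKM) and lowest in the untreated inhibited library (49.8 and 31.6).

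Both RNAs were among the loci with the highest listed FPKM of each table. This is a place among listed values only, since genes such as Actb were listed at 0. Malat1 ranked between 27 and 58 by FPKM in the 4 libraries and Neat1 between 39 and 95, which put them at or above the percentile 95.3 of loci above 0. The deposited intervals extended by 10.1% to 16.4% of the FPKM on each side for Malat1 and by 16.5% to 30.1% for Neat1. If each interval is 2 counting SD wide on each side, this corresponds to roughly 149 to 396 fragments for Malat1 and 44 to 147 for Neat1. In inhibited tumours the implied fragments went from 149 untreated to 179 with docetaxel for Malat1, whose FPKM was 1.64 times as high. For Neat1 they went from 44 to 61, with FPKM 1.97 times as high. In efficient tumours they went from 279 to 396 for Malat1 and from 89 to 147 for Neat1. The implied depth was lowest in the docetaxel inhibited library for both RNAs. These intervals cover counting and read assignment within a library, and not differences between animals.

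The first question was how the docetaxel and the untreated tumour differed when the grafted cells were caspase-3 efficient. Malat1 was 1.35 times as high with docetaxel (1.08 to 1.68 from the deposited bounds), a log2 difference of 0.43 in FPKM + 1, and its intervals did not overlap. Neat1 was 1.44 times as high (0.970 to 2.10), a log2 difference of 0.52, with overlapping intervals. A locus was called only if FPKM + 1 differed by 2-fold or more between the libraries, its intervals did not overlap and it reached 5 FPKM in 1 of the libraries compared. Neither member was called here, where 8.10% of 667 compared loci were called higher and 0.900% lower. Intervals lay apart in the higher direction, whatever the fold, in 10.5% of the compared loci. Over all compared loci the median log2 difference was 0.34, and 308 of the 667 loci had a difference at least as high as that of Malat1. For Neat1 this count was 269. Among the 200 loci that reached 20 FPKM in 1 of the 2 libraries, the counts were 96 for Malat1 and 81 for Neat1. The members thus stood near the middle of the table in this comparison.

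In caspase-3 inhibited tumours the docetaxel library was again the higher one for both RNAs. Malat1 was 1.64 times as high as in the untreated library (1.20 to 2.25), a log2 difference of 0.70. Neat1 was 1.97 times as high (1.13 to 3.58), a log2 difference of 0.96, just short of the 2-fold line. The intervals of both RNAs lay apart, as did those of 6.67% of the 630 compared loci in the higher direction, and 0 of the 2 members were called, against 3.81% of loci called higher and 1.75% called lower. The median of all compared loci was 0.37, and 134 of the 630 had a difference at least as high as that of Neat1. For Malat1 this count was 203. Among the 189 loci that reached 20 FPKM in 1 of the 2 libraries, the counts were 64 for Malat1 and 34 for Neat1.

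The docetaxel differences were smaller once the libraries were scaled to a common level, to a degree that depended on the loci used. With each library scaled to the median of the 342 loci, Malat1 was 1.12 times as high with docetaxel in efficient and 1.23 times in inhibited tumours, and Neat1 1.20 and 1.48 times. All of these scaled intervals overlapped. With scaling to the median of 65 loci starting within 3 Mb of Malat1, Malat1 was 1.21 times as high in efficient and 1.40 times in inhibited tumours. Neat1 was then 1.29 and 1.69 times as high. Of these locally scaled intervals, only those of Malat1 in inhibited tumours lay apart. Col1a2, a chain of type I collagen made by fibroblasts, was at 369, 515, 371 and 579 FPKM in the order untreated efficient, docetaxel efficient, untreated inhibited and docetaxel inhibited. Its docetaxel folds as deposited, 1.39 in efficient and 1.56 in inhibited tumours, were close in value to those of Malat1, and its intervals did not overlap either. After median scaling the intervals of Col1a2 overlapped in both. With quantile normalization its log2 difference was -0.33 in efficient and 0.55 in inhibited tumours, against 0.05 and 0.21 for Malat1.

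The caspase-3 comparison asked how the inhibited and the efficient tumour differed within 1 treatment state. In untreated tumours Malat1 was lower by 46.4% in the inhibited library (a ratio of 0.536, with 0.401 to 0.711 from the bounds). Its log2 difference was -0.89, short of the 2-fold line, with intervals apart. Neat1 had a ratio of 0.445 (0.254 to 0.732) and a log2 difference of -1.14, and it was called lower. Of 597 compared loci, 3.35% were called lower and 2.51% higher, and 4.36% had intervals apart in the lower direction. The median of all compared loci was -0.09. A difference at least as low as that of Neat1 was found in 70 of the 597 loci, and in 9 of the 163 that reached 20 FPKM in 1 of the 2 libraries. For Malat1 these counts were 103 of 597 and 16 of 163, each count including the member itself.

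Under docetaxel, Malat1 had a ratio of 0.652 between the inhibited and the efficient library (0.505 to 0.835), a log2 difference of -0.61. Neat1 had a ratio of 0.610 (0.394 to 0.937) and a log2 difference of -0.70. Neither was called, although the intervals of both lay apart, which held for 10.3% of the 701 compared loci in the lower direction, and 9.27% of these loci were called lower and 3.99% higher. The median of all compared loci was -0.05, and 176 of the 701 were at least as low as Neat1. For Malat1 this count was 201. Among the 221 loci that reached 20 FPKM in 1 of the 2 libraries, the counts were 57 for Malat1 and 48 for Neat1. This comparison uses 1 library of the first and 1 of the second comparison again, so the 4 comparisons are not separate observations.

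Under median and quantile scaling the caspase-3 differences changed less than the docetaxel differences, but not under local scaling. After scaling to the median of the 342 loci, the untreated ratio was 0.573 for Malat1 and 0.475 for Neat1, and the docetaxel ratio 0.626 and 0.586, with all 4 pairs of intervals apart. Scaling to the median of 65 loci starting within 3 Mb of Malat1 brought Malat1 in untreated tumours from -0.89 to -0.60 on the log2 scale and Neat1 in untreated tumours to a log2 difference of -0.86, under the line for a call, and its intervals under docetaxel then overlapped. Relative to Col1a2 in the same library, a ratio chosen after the data were seen and in which library scaling cancels, Malat1 was at 0.252 and 0.243 in the untreated and docetaxel efficient libraries and at 0.134 and 0.141 in the inhibited ones. Neat1 was at 0.192 and 0.198 in the efficient and at 0.0851 and 0.107 in the inhibited libraries. Both efficient libraries thus lay above both inhibited ones in the values of these ratios. For Malat1 the ranges from the deposited bounds also lay apart between efficient and inhibited libraries. For Neat1 the range of the untreated efficient library (0.139 to 0.256) overlapped that of the docetaxel inhibited library (0.0739 to 0.148).

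**Figure D2:**
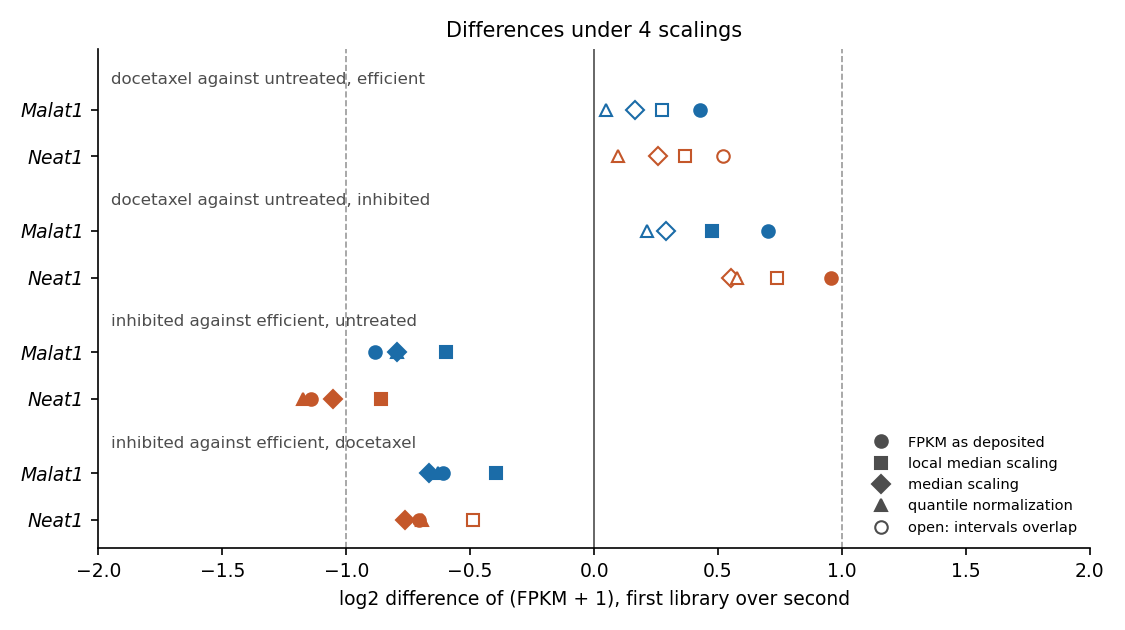
Log2 differences of FPKM + 1 for Malat1 (blue) and Neat1 (orange) in the 4 comparisons, 1 symbol per scaling; filled symbols have intervals that do not overlap, open ones overlap, and dashed lines mark 2-fold. The docetaxel differences shrink under all 3 other scalings, down to 0.05 for Malat1 in efficient tumours, and the caspase-3 differences, between -1.18 and -0.39, shrink in all 4 rows under local median scaling.

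The docetaxel difference was larger in value in inhibited than in efficient tumours for both RNAs, but the bounds allowed either sign. The difference of the docetaxel differences, inhibited minus efficient on the log2 scale, was 0.27 for Malat1 (-0.49 to 1.04 from the bounds) and 0.44 for Neat1 (-0.88 to 1.84). Of 775 loci that reached 5 FPKM in any library, 79.7% had a difference of differences at least as large in size as that of Malat1 and 69.0% as large as that of Neat1. These ranges combine the outer bounds of all 4 libraries and cover counting and read assignment within a library only. With 1 library per group, whether the docetaxel response differs between efficient and inhibited tumours could not be tested for either RNA.

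The balance between both RNAs moved less than either level. Neat1 was at 0.765 times the FPKM of Malat1 (0.537 to 1.05) in the untreated efficient library and at 0.817 (0.606 to 1.04) in the docetaxel efficient library. In inhibited tumours it was at 0.634 (0.376 to 0.981) untreated and at 0.764 (0.492 to 1.13) with docetaxel. The ranges from the deposited bounds overlapped among all 4 libraries, and the highest ratio was 1.29 times the lowest. Since both values come from the same library, a common scaling factor cancels in this ratio.

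The profiles of Malat1 and Neat1 over the 4 libraries were close to each other. Likeness was measured as the Euclidean distance between log2(FPKM + 1) values centred over the 4 libraries, among loci at 5 FPKM or more in all of them. At a distance of 0.262, Malat1 was the second closest of 341 loci to Neat1, and Neat1 the fifth closest to Malat1, where the median distances were 1.17 and 0.984. Pearson's r between their profiles was 0.999 over 4 libraries and the highest of the 341 loci for each, given as a description, since the libraries share their depth and general level among loci. With loci at 20 FPKM or more, Malat1 was the closest of 105 to Neat1, and Neat1 the third closest to Malat1 after Casp1 and Nicn1. The order of the 4 libraries seen in both members was also that of 24 of 342 loci, the members included, and 140 of the 342 were lowest in the untreated inhibited library.

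The closest locus to Malat1 was Casp1, an inflammatory caspase that matures interleukin-1 beta, at a distance of 0.203. It was at 45.6 FPKM in the untreated efficient, 62.4 in the docetaxel efficient, 29.0 in the untreated inhibited and 41.0 in the docetaxel inhibited library. Nicn1, a subunit of a tubulin polyglutamylase complex, Ube2h, a ubiquitin-conjugating enzyme, and Ptprcap, a protein bound to the leukocyte phosphatase CD45, followed at distances of 0.243, 0.244 and 0.250. The closest locus to Neat1 was Tmem123, a membrane protein gene, at a distance of 0.195, with 14.9, 21.0, 5.03 and 12.3 FPKM in the same order. After Malat1 came Nicn1, Ptprcap and Pon2, a paraoxonase, at 0.277, 0.319 and 0.392. With 4 libraries a close profile is easily met, and the distances are a ranking within these tables.

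**Figure D3:**
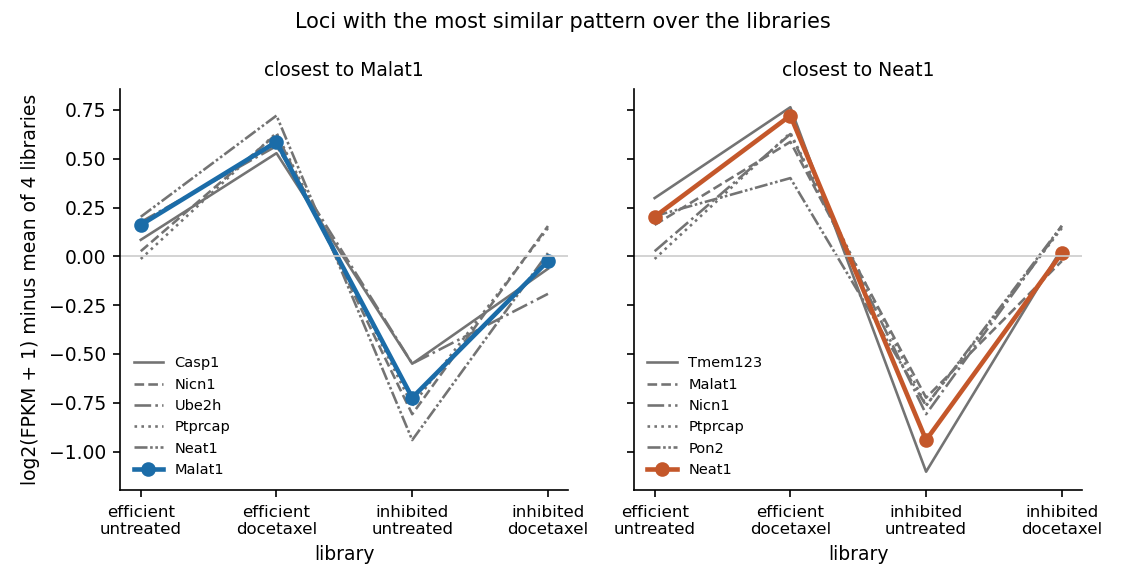
Log2(FPKM + 1) minus its mean over the 4 libraries for Malat1 (left, blue) and Neat1 (right, orange) with the 5 closest loci to each in grey; lines join the libraries only to guide the eye. The profiles share a peak in the docetaxel efficient and a low in the untreated inhibited library, and Tmem123 follows Neat1 at a distance of 0.195.

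Neighbouring loci on chromosome 19 were read to see whether the values around the members moved in the same way. Within 250 kb of either span the table lists 32 other loci, of which 25 were above 0 in all 4 libraries and 18 at 5 FPKM or more in all. With docetaxel in efficient tumours the median log2 difference of the 18 was -0.19, and 15 of them lay below Malat1 and 15 below Neat1. In inhibited tumours their median was 0.30, with 14 below Malat1 and 16 below Neat1. Between inhibited and efficient untreated tumours it was -0.31, with 13 of 18 negative, and 4 of the 18 lay below Malat1 and 2 below Neat1. Under docetaxel it was 0.07, with 9 positive and 9 negative, and 2 of the 18 lay below each member.

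Single neighbours showed that values around the members were not uniform. Frmd8, the first locus beyond Neat1, which encodes a partner of the iRhom proteins that steer the protease ADAM17, was at 16.1 FPKM in the untreated efficient and 5.28 in the untreated inhibited library, and was called lower. It was the 1 neighbour called of 23 compared, a share near the 3.35% of all loci called lower. Under docetaxel it was at 11.7 and 11.1 FPKM. Rela, a subunit of the transcription factor NF-kappaB, was at 19.9 FPKM in the untreated efficient and 8.92 in the untreated inhibited library, and Fau, a ribosomal protein gene, at 103, 73.4, 48.6 and 96.5 in the order used above. Under docetaxel the 1 neighbour of 23 called in the caspase-3 comparison, where 9.27% of all loci were called lower, was Slc25a45, a mitochondrial carrier gene, which was at 1.83 FPKM in the inhibited against 16.9 in the efficient library.

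**Figure D4:**
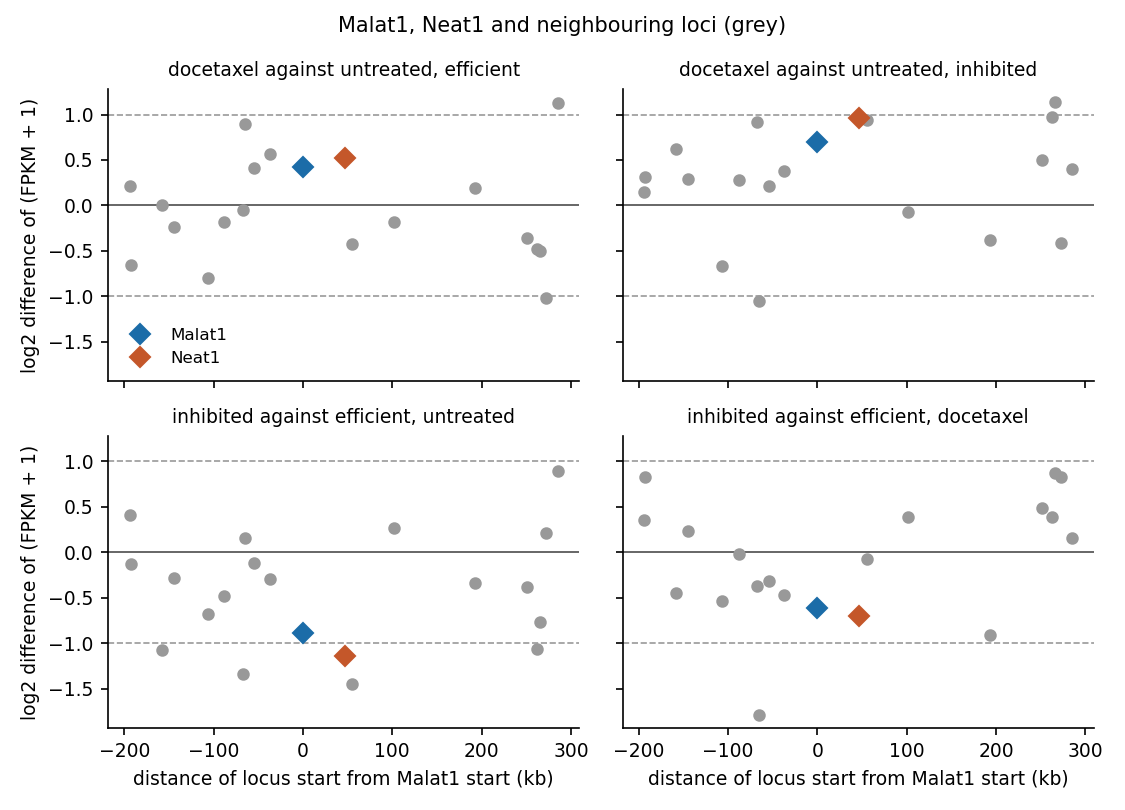
Log2 differences of FPKM + 1 in the 4 comparisons for Malat1, Neat1 (diamonds) and the 18 neighbouring loci at 5 FPKM or more in all libraries (grey), by the distance of their starts from the start of Malat1 in kb. With docetaxel in efficient tumours 15 of the 18 lie below each member, and between inhibited and efficient untreated tumours 4 lie below Malat1 and 2 below Neat1.

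Genes for the proteins of both nuclear bodies could be read only in part. Of 34 paraspeckle genes 33 were found by symbol among the loci. Of these 6 were measured, that is, reached 1 FPKM in any library, and Sfpq, Nono and Pspc1 did not. With docetaxel, 0 of 4 compared paraspeckle genes and 0 of 3 compared genes from a list of 30 nuclear speckle genes were called in the deposited FPKM. This held for either direction in efficient tumours (background 8.10% higher and 0.900% lower) and in inhibited tumours (3.81% and 1.75%). Over the compared genes the median log2 difference with docetaxel was -0.06 (efficient) and -0.15 (inhibited) for paraspeckle genes and -0.08 and 0.24 for speckle genes, where all compared loci had 0.34 and 0.37. For inhibited against efficient tumours the paraspeckle median was 0.51 untreated and 0.36 with docetaxel, and the speckle median 0.07 and 0.10, where all compared loci had -0.09 and -0.05. No speckle gene was called in the deposited FPKM of these comparisons either, where 3.35% of loci were called lower and 2.51% higher untreated, and 9.27% and 3.99% with docetaxel. Each list median rests on 3 or 4 genes, and a count of 0 among so few is near these background shares.

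The measured body proteins with the highest levels stood the other way from the members in the caspase-3 comparison. Rbm14, an RNA-binding protein needed for paraspeckle assembly, was at 40.5 FPKM (29.1 to 51.8) in the untreated efficient and 26.7 (18.5 to 34.4) in the docetaxel efficient library, and at 66.1 (50.2 to 81.2) and 63.1 (45.7 to 79.8) in the inhibited ones. It was the 1 paraspeckle gene called in the deposited FPKM, higher in the inhibited library under docetaxel (log2 difference 1.21), where 3.99% of 701 loci were called higher. This call also held under each of the other 3 scalings. With quantile normalization Rbm14 was further called lower with docetaxel in efficient tumours (log2 difference -1.03). Ewsr1, an RNA-binding protein, was at 61.6 (45.6 to 77.2) and 72.3 (54.5 to 89.9) FPKM in the efficient and at 105 (81.1 to 128) and 88.4 (64.7 to 111) in the inhibited libraries. Srsf1, a splicing factor of nuclear speckles, was at 59.4 (49.5 to 69.6) and 56.2 (47.5 to 65.1) in the efficient and at 85.5 (72.2 to 98.8) and 101 (84.8 to 118) in the inhibited libraries. Neither Ewsr1 nor Srsf1 was called in the deposited FPKM, although Srsf1 was called higher in the inhibited library under docetaxel with quantile (log2 difference 1.03) and local scaling (1.05), and Ewsr1 in untreated tumours with local scaling (1.05). The log2 difference of Rbm14, Ewsr1 and Srsf1 between inhibited and efficient tumours was positive in both treatment states under all 4 scalings.

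The other measured body genes were mixed. Rbm4b, an RNA-binding protein gene, was at 8.57 and 6.59 FPKM in the efficient and 11.0 and 9.19 in the inhibited libraries (untreated, then docetaxel), and Prpf8, a core spliceosome gene, at 1.64 and 1.85 against 3.07 and 2.87, so both inhibited values lay above both efficient ones, with intervals that overlapped. Sf3b2, a subunit of the splicing factor SF3b, was at 27.6, 39.4, 22.9 and 42.4 FPKM in the order used above, and Tardbp, encoding the RNA-binding protein TDP-43, at 5.36, 6.42, 4.62 and 6.44. Sf3a1, of the SF3a complex, was at 13.5, 12.4, 14.2 and 6.97. It was not called as deposited, but was called lower with docetaxel in inhibited tumours under each of the other 3 scalings, with log2 differences of -1.31 (median), -1.26 (quantile) and -1.15 (local). Cpsf7, a 3' end processing factor, and Ubap2l did not exceed 2.95 FPKM in any library.

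Among 28 other long noncoding RNA genes, 21 were found by symbol among the loci and 2 were measured. Tug1, a long noncoding RNA first described in the retina, was at 11.5 FPKM (6.62 to 16.3) in the untreated efficient and 16.3 (11.2 to 21.3) in the docetaxel efficient library, and at 7.48 (2.96 to 11.9) and 8.78 (3.31 to 14.2) in the inhibited ones. Its values stood in the same order over the 4 libraries as those of Malat1 and Neat1, with both efficient values above both inhibited ones. The intervals overlapped in every comparison, so Tug1 was not called in any. For docetaxel in inhibited tumours its log2 difference was 0.21 as deposited and -0.16 after median scaling. The other, 1700020I14Rik, was at 1.69, 2.63 and 7.61 FPKM in the untreated efficient, docetaxel efficient and docetaxel inhibited libraries and listed at 0 in the untreated inhibited one. It was highest in the docetaxel inhibited library, unlike the members, with an interval there of 0 to 20.3, and was not called.

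**Figure D5:**
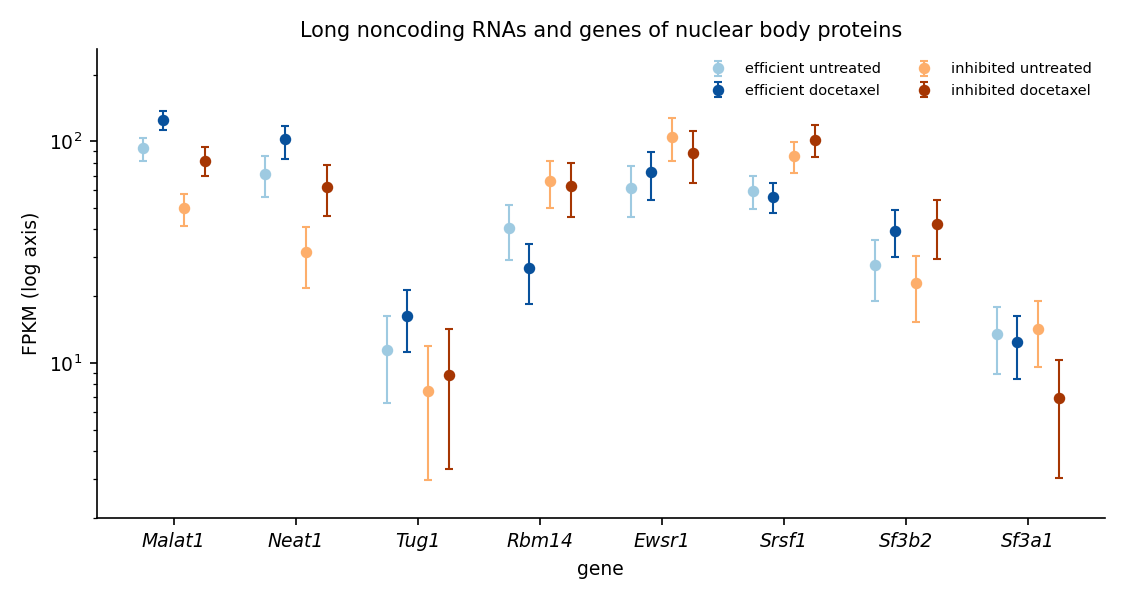
FPKM on a log axis with deposited intervals in the 4 libraries (colours) for Malat1, Neat1, Tug1 and genes of nuclear body proteins. Malat1 and Neat1 are lowest in the untreated inhibited library (49.8 and 31.6 FPKM), whereas Srsf1 and Rbm14 are higher in both inhibited libraries than in both efficient ones.

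Markers of cell types were read beside these values, since in bulk tumours fewer cells of a type and less RNA per cell cannot be told apart. Of 5 erythroid genes 2 were measured, both alpha globin, and their summed FPKM was 207 in the untreated efficient, 1766 in the docetaxel efficient, 935 in the untreated inhibited and 427 in the docetaxel inhibited library. Of 6 adipocyte markers 3 were measured, with sums of 12.6, 429, 11.6 and 12.4 in that order, almost all of the 429 from Retn, the gene of the hormone resistin, and the rest from Cidea and Lep. Both sums were highest in the docetaxel efficient library, as Malat1 and Neat1 were, and their part in the result was not tested. Of 7 fibroblast markers Col1a2 alone was measured, with Col1a1 among those listed at 0 or under 1 FPKM. All 6 macrophage, 4 skeletal muscle and 4 keratinocyte markers were listed at 0 in all 4 libraries, as were 5 of 6 carcinoma and epithelial markers. The remaining one, the claudin gene Cldn4, was at 5.71 FPKM (1.64 to 9.03) in the docetaxel efficient library, where Malat1 and Neat1 were also highest, and listed at 0 in the other 3, so it met the rule for a call in both comparisons with that library. With docetaxel in efficient tumours 8.10% of 667 loci were called higher. In inhibited against efficient tumours under docetaxel 9.27% of 701 loci were called lower. The part of Cldn4 in the result was not tested. Of 6 endothelial markers 2 were measured, Pecam1 and Tek, with sums of 0.734 to 3.30 FPKM. A listed 0 gives no level here, since Actb was at 0 as well.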

How the data were processed

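The submitters' processing notes name TopHat, Cufflinks and the mouse genome mm9, without versions. The labels' protocols state ribosomal RNA depletion or messenger RNA purification, and the labels call all 4 libraries depleted of ribosomal RNA, a method that keeps RNAs without a poly(A) tail. How strand was handled is not stated. The deposited values are FPKM with 2 bounds and a status per locus, per the file headers. The authors' FPKM is scaled to each library's mapped fragments, and depth as counts is unknown. The depth implied by the members' intervals was lowest in the docetaxel inhibited library, which also had the fewest loci above 0 (1842). Its part in the FPKM differences was not tested.

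Loci were joined by symbol and position, and starts were raised by 1 to count from 1. The 285 loci of each library with the status LOWDATA entered no comparison. Differences are log2(FPKM + 1), which understates those of low loci. Calls needed 2-fold, intervals apart and 5 FPKM, were made over the whole table, and were checked on simulated data. Named were the members, called genes and up to 4 of the highest measured genes of each list described, single neighbours within 250 kb, which were chosen after their values were seen, and the 5 closest profiles (spans under 500 bp and short RNAs left out). Members and lists were chosen with earlier results of these data known. Alternatives were pseudocounts of 0.1 and 5, median, local median and quantile scaling, no interval criterion, 3-fold, and minima of 1, 20 or no FPKM. Mouse sequence was not used here. Computation used Python (version 3.11.15), numpy (2.4.6), pandas (2.3.3) and matplotlib (3.10.9).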

Additional observations from a re-analysis of the deposited data

How the results depend on the processing

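Of the 80 results of Malat1 and Neat1 under the alternatives to the 4 comparisons, 78 kept their side of the call. Of the 10 alternatives 5 change the value itself, and all 40 values under these kept their sign. The others change only the rule, and a result short of 2-fold that was not called could not become called under them. Part of the 78 was therefore fixed in advance. Neat1 in untreated tumours, inhibited against efficient, was the only result called as deposited, and it kept its call in 8 of 10 alternatives. Part of these 8 was fixed in advance as well. Dropping the interval criterion or changing the FPKM minimum could not remove the call, since Neat1 reached 71.0 FPKM, above every minimum used. Of the settings able to remove it, both pseudocounts, median scaling and quantile normalization kept the call. Neat1 was no longer called after local median scaling (-0.86) and with a 3-fold threshold, which leaves its value at -1.14. Across alternatives its log2 difference ran from -1.18 to -0.86, and that of Malat1 from -0.90 to -0.60. The docetaxel differences ran from 0.05 to 0.43 (Malat1, efficient), 0.10 to 0.52 (Neat1, efficient), 0.21 to 0.71 (Malat1, inhibited) and 0.55 to 0.98 (Neat1, inhibited). The cause of the change under local scaling was not tested. The difference of differences ran from 0.13 to 0.28 for Malat1 and from 0.29 to 0.48 for Neat1.

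The counts of all called loci moved by more than 1.5 times under some settings. In the order docetaxel in efficient, docetaxel in inhibited, inhibition in untreated and inhibition under docetaxel, they were 60, 35, 35 and 93 as reported. Without the interval criterion they were 187, 184, 142 and 240, and with a minimum of 20 FPKM 25, 13, 12 and 40. With a minimum of 1 FPKM, and likewise with none, they were 91 for docetaxel in efficient tumours and 53 and 142 for inhibition. As deposited, 90.0%, 68.6%, 42.9% and 30.1% of the calls were higher. Median scaling gave 73.1% and 38.7% for docetaxel in efficient and inhibited tumours, and quantile normalization 66.7% and 45.5%. Local scaling gave 43.8% for docetaxel in inhibited tumours and 63.9% and 42.5% for inhibition. No paired analysis was possible because each group was 1 library, and for the same reason no library could be left out within a group.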

Other observations

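Genes of pathways known to raise Neat1 were nearly unreadable in these tables. Of 14 p53 target genes 2 were measured. Trp53inp1, a p53 target that acts in cell death and autophagy, was at 0.383 FPKM (0 to 1.54) in the untreated efficient and 5.50 (2.89 to 8.10) in the docetaxel efficient library, a call, and at 2.15 and 1.73 in the untreated and docetaxel inhibited libraries. It was the 1 gene of its list compared between the efficient libraries, where 8.10% of 667 loci were called higher. A single compared gene gives no share of calls for the list. Gdf15, a stress cytokine gene, was at 2.26 FPKM in the untreated efficient library and listed at 0 in the others. All 14 hypoxia-inducible genes, Vegfa and Slc2a1 among them, were listed at 0 in all 4 libraries.

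Of 20 genes of RNase P and of nuclear RNA processing 3 were measured. Rpp38, a subunit of RNase P, was at 5.74 FPKM and Rpp40, another subunit, at 3.59 in the docetaxel efficient library. In the docetaxel inhibited library they were at 3.62 and 2.36, and both were listed at 0 in the untreated libraries. Mettl16, a methyltransferase that binds the triple helix of Malat1, was at 1.21 FPKM in the docetaxel efficient library and listed at 0 in the others. Mettl16 and Rpp40 stayed under the minimum of 5 FPKM in every library, so the rule for a call did not apply to them. Rpp38 alone was compared, and only in the comparisons with the docetaxel efficient library, where its interval was 0 to 10.1. It was not called higher with docetaxel in efficient tumours, where 8.10% of 667 loci were. Nor was it called lower in inhibited tumours under docetaxel, where 9.27% of 701 loci were. A single compared locus gives no share of calls for this list.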
